A study of Homo sapiens with 172 samples.

Results

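The 13 olfactory receptor gene clusters were followed in 84 single cells of the human line KBM7, which derives from a myeloid leukaemia and carries most chromosomes once. They were chosen by position, as the 100 kb bins that overlap 13 stretches on chromosomes 11, 1, 14, 12, 17 and the joined chromosome 9:22, in hg19 coordinates. These stretches hold 123 of the 30376 bins, and 120 of them carried signal, out of 26414 covered bins in all. Each cluster is named below by its chromosome and its start in Mb. All samples formed 1 group, haploid cells of clone 5-5 with Dam methyltransferase fused to LaminB1, and the fusion was switched on for 15 h by the stabilising ligand Shield1 at 0.5 nM. The smallest 2% of cells that carried both Fucci cell cycle markers had been sorted singly. The line is 1 clone and no separate cultures are named, so there was no comparison between conditions and no p-value was made from cells. Standard deviations over cells describe variation between cells and not replicate error.

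DamID marks DNA that comes near the nuclear lamina, a filament mesh that lines the nucleus from inside, because the Dam fusion methylates adenines within its reach. Olfactory receptors are the odour receptors of the nose and the largest gene family in mammals. They lie in tandem arrays, and a sensory neuron of the nose expresses a single receptor gene while the others stay silent. Blood cells have no known use for most of them. Silent, AT-rich and gene-poor chromatin is the usual material of lamina-associated domains.

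The data gave 168 columns, and the columns whose numbers differ by 86 were averaged as measurements of 1 cell. In each of the 168 the best correlated column was the one 86 numbers away. The resulting 84 cells had 7134 to 418937 reads with a median of 63700, taken from the deeper column of a cell. The cluster bins together held 19 to 2819 of these reads, with a median of 362.5. Values are ratios of observed over expected reads, and contact means a ratio of 1 or more. Contact frequency is the percent of the 84 cells in which a bin was in contact.

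The genes of each cluster were taken from the gene order in RefSeq, between neighbours well known to border the arrays. Genes of this order can fall just outside the stretches of the rule, and none was assigned to a single bin, since the table is of build GRCh38.p14. It lists 392 coding olfactory receptor genes, of which 260 lie between the named neighbours, with 238 pseudogenes. Chromosome 11 holds 154 of the 260. RefSeq start windows, 250 bases before to 50 after the annotated start of a gene, were found for 212 of them. In 91 of these (42.9%) the annotated start was itself an ATG, against 2.60% of 15528 other coding genes. Where the start is the start codon, the window is not shown to be a promoter, and receptor windows and those of other genes are then unlike regions. The receptor windows were AT-rich, with a GC content of 38.2% ± 7.05 (SD, n = 212 windows), against 61.8% ± 11.5 over the other coding genes. In the 121 receptor windows with no ATG at the start it was 40.2% ± 7.57, against 62.0% ± 11.5 in 15125 such windows of other coding genes. They held a median of 1 CG dinucleotide, the site of DNA methylation, against 22 in the other coding genes. Windows of the first and the last gene of the most and of the least contacted cluster are printed to show this composition, 5′ to 3′, with each CG dinucleotide in capitals. OR13F1 (chr9:104504013-104504312, plus strand) and OR13D1 (chr9:104694268-104694567, plus strand) belong to the cluster on 9:22, the most contacted. OR1D5 (chr17:3063558-3063857, minus strand) and OR1E2 (chr17:3433792-3434091, minus strand) belong to the cluster on chromosome 17, the least contacted. In these 4 windows the annotated start is an ATG. The coordinates are of GRCh38.p14 and not of the build of the contact values.
OR13F1: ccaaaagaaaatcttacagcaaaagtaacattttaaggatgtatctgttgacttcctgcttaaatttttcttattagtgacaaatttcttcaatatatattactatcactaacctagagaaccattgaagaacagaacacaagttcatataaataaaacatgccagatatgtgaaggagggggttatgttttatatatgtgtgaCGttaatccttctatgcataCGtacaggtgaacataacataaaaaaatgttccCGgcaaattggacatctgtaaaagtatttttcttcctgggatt
OR13D1: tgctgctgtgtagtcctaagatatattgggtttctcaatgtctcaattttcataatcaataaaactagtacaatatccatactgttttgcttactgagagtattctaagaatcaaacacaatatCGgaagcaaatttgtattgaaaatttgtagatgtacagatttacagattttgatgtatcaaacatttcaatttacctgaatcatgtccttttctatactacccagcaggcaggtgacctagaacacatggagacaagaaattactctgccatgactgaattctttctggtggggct
OR1D5: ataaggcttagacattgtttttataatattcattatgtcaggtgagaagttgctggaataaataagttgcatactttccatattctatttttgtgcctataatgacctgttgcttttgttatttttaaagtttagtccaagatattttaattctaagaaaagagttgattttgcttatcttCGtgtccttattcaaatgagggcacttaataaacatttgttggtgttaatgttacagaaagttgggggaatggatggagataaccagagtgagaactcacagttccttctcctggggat
OR1E2: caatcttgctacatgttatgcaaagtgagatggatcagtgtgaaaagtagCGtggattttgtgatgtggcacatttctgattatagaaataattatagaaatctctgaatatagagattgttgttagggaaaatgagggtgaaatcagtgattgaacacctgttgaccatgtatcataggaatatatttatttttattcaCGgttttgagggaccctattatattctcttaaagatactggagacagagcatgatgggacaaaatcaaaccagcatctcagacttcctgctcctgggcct
OR13F1 and OR13D1 had 31.7% and 34.7% GC with 3 and 1 CG, and OR1D5 and OR1E2 had 33.0% and 37.0% with 1 and 2. OR1D5 and OR1E2 had the lowest GC of the 9 windows of their cluster, whose mean was 46.7%, so they are not typical of it.

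Motifs known from olfactory receptor promoters in mouse were searched on both strands of the 212 windows. TAATTA, the core of homeodomain sites, occurred in 50 of them (23.6%), against 4.98% of all 27305 windows in the table. TATAAA, a core promoter element bound by TBP, occurred in 75 (35.4%), against 12.0% of all windows. The palindromic core motif of EBF factors, TCCC followed by any 2 bases and then GGGA, occurred in 2 (0.943%), against 1.20% of all. TATAAA occurred in 42.9% of the 91 receptor windows with an ATG at the start and in 29.8% of the 121 others. For TAATTA these shares were 18.7 and 27.3%. In windows of other coding genes with no ATG at the start, TATAAA occurred in 9.04% and TAATTA in 2.88%. TAATTA and TATAAA hold only A and T, and the receptor windows are richer in these bases than the table as a whole. A match is no evidence of a factor. Of the printed windows, OR1E2 held TAATTA, and OR13F1 and OR1D5 held TATAAA.

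The first question was how often the receptor clusters touch the lamina. Bins of the clusters were in contact in a mean of 46.3% ± 17.3 of cells (SD over 84 cells), against 14.2% ± 5.29 for the 192 covered bins within 1 Mb of their edges. All other covered bins of the genome averaged 27.7% ± 6.53. The clusters were thus above both their surroundings and the genome, while their surroundings were below the genome. In 64 of the 120 cluster bins (53.3%) the frequency was at least 50%, against 9.90% of the flank bins and a background of 30.7% of covered bins. A frequency of at least 20% was reached by 100 cluster bins (83.3%), against 24.5% of flank bins and a background of 47.7%. Under 5% lay 5 cluster bins (4.17%), against 53.6% of flank bins and a background of 36.7%. No cluster bin reached 80%, where the background was 0.303%. The clusters were chosen with earlier results of these data known, and their bins lie next to each other, so these shares are a description with no test.

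The clusters fell into a larger set of 10 with mean frequencies from 42.7 to 71.4% and a set of 3 from 3.33 to 16.7%. No cluster lay between 16.7 and 42.7%. Highest was 9:22:107.2, positions 107200001 to 107500000, an array of 8 coding OR13 genes between SMC2 and NIPSNAP3A. Its 3 bins were in contact in 79.8, 72.6 and 61.9% of cells, with a mean of 71.4%. The first of these, in contact in 67 of 84 cells (exact 95% interval 69.6 to 87.7%, counting error only), was the most contacted bin of all clusters. Its ratio had a median of 2.32 over cells and reached 11.4, and 7 cells had no read there.

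Chromosome 11 holds 7 of the clusters, and they spanned most of the range. The array 11:55.0, positions 55000001 to 56600000, is the largest in coding genes, with 46 receptors of the OR4, OR5, OR8, OR9 and OR10 families between TRIM48 and LRRC55. It averaged 60.3% and was even along its length, with all 16 bins between 50.0 and 71.4%. The array 11:123.6, positions 123600001 to 124500000, with 22 genes led by family OR8, averaged 58.1%, and its 9 bins lay between 47.6 and 71.4%. The array 11:4.3, positions 4300001 to 5200000, with 26 genes of OR51 and OR52, averaged 57.3%. It had a step inside it. Its first 4 bins were at 46.4, 45.2, 36.9 and 44.0%, and its last 5 at 71.4, 76.2, 71.4, 67.9 and 56.0%. In gene order, the ubiquitin ligase genes TRIM21 and TRIM68 lie among the receptors of this array.

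The array 11:5.4, positions 5400001 to 6300000, holds 29 genes of OR52, OR51 and OR56 and averaged 52.6%. A pair of neighbouring bins, from 5600001 to 5800000, were lower, at 38.1 and 39.3%, between bins of 61.9 and 54.8%. The antiviral genes TRIM5, TRIM6, TRIM34 and TRIM22 lie within this array in gene order, and they were not placed in these bins. The beta-globin genes lie between the arrays 11:4.3 and 11:5.4. Both bins of that gap were contacted about as often as the receptor arrays, 5200001 to 5300000 in 42 of 84 cells (50.0%, exact 95% interval 38.9 to 61.1%) and 5300001 to 5400000 in 48 (57.1%, 45.9 to 67.9%). The 11p arrays and the gap thus formed 1 stretch of frequent contact. No gene was placed in either bin of the gap, so receptor genes can lie there as well as globin genes. Both bins counted as flank of both arrays.

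Near the centromere, the array 11:48.2, positions 48200001 to 51500000, with 11 coding genes, all of family OR4, and 31 pseudogenes, averaged 42.9% over 30 covered bins. It was the most uneven array on chromosome 11, from 10.7 to 69.0%. The stretch from 48700001 to 49000000 had a mean of 15.1%, and both sides of it were contacted more often. The other 3 bins of the array carried no signal. Its values rest on few expected reads, since the median expectation of its bins was 20.7% of that of the median covered bin, against 72.5 to 119% in the other 12 clusters. In the deeper column of a cell, a ratio of 1 stood for a median of 0.551 reads per bin there. It stood for under 1 read in the median bin in 54 of 84 cells. Contact itself was called on the mean of both columns. The 3 bins with at least 50% of the median expectation averaged 58.3%, an alternative added after seeing the data. The array 11:57.7, positions 57700001 to 58300000, with 13 genes led by OR5, averaged 45.4%, with bins from 31.0 to 60.7%.

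The clusters on chromosomes 1 and 14 were of the same order. The array 1:247.6, positions 247600001 to 248900000, close to the end of the chromosome, holds 43 genes led by OR2 and averaged 48.4%. Its first bin was at 4.76% and its other 12 between 28.6 and 65.5%. The array 1:158.3, positions 158300001 to 159000000, with 13 genes of OR6 and OR10, averaged 42.7%. Its last bin, at 19.0%, was below the other 6, which lay between 39.3 and 52.4%. The array 14:20.2, positions 20200001 to 20700000, with 16 genes of OR4 and OR11, averaged 52.9%, with bins from 42.9 to 67.9%.

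The arrays on chromosomes 12 and 17 and 1 small array on chromosome 11 were rarely in contact. The array 17:2.9, positions 2900001 to 3400000, with 11 genes of OR1 and OR3 between RAP1GAP2 and SPATA22, averaged 3.33%. Its 5 bins were contacted by 1 to 5 cells each, and it supplied 4 of the 5 lowest bins of all clusters. The lowest, 2900001 to 3000000, was in contact in 1 of 84 cells (1.19%, exact 95% interval 0.0301 to 6.46%) and had no read in 76 cells. The array 12:55.5, positions 55500001 to 56000000, with 15 genes led by OR6, averaged 9.52%, and its 5 bins lay between 8.33 and 13.1%. The array 11:59.0, positions 59000001 to 59300000, with 7 genes of OR4 and OR5, averaged 16.7%. Between their neighbours these 3 arrays hold no coding gene other than receptors, as do 14:20.2 and 9:22:107.2, which were often in contact.

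**Figure D1:**
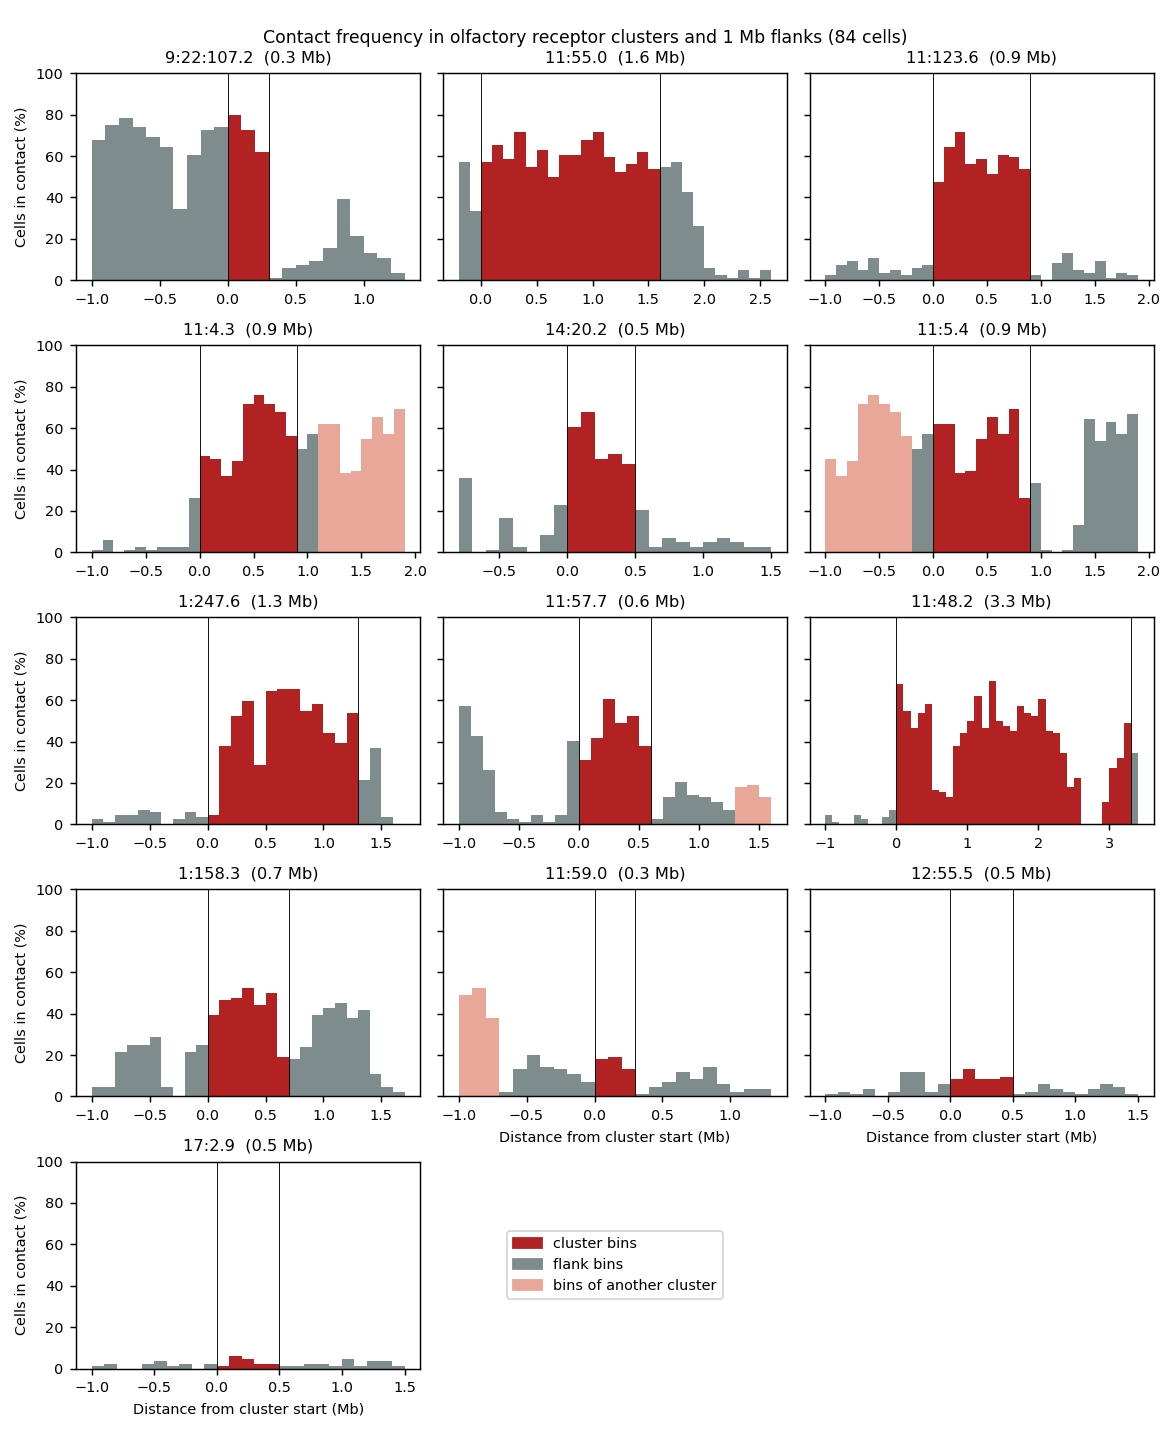
Contact frequency (percent of 84 cells, vertical axis) of each 100 kb bin against distance from the cluster start in Mb, for the 13 clusters and 1 Mb on either side, ordered from the highest mean (71.4%) to the lowest (3.33%). Vertical lines mark the cluster edges, and a place with no bar has either a frequency of 0 or no signal.

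Flanks were set beside each cluster to see whether contact follows the array or its neighbourhood. Of the 392 coding receptor genes, 260 lie between the named neighbours. The flanks were not searched for the others, so a flank bin can hold receptor genes. Averaged over the 13 clusters, the cluster minus flank difference was 28.2 ± 11.1 percentage points (SD over 84 cells), and this mean was above 0 in 84 of 84 cells. Contact frequency was higher in the cluster than in its flanks in each of the 13 clusters, by 1.43 to 52.7 points, though at 17:2.9 the sign turned at contact cutoffs of 1.5 and 2 (-0.119 and -0.238 points) and in cells 1 to 29 (-1.38 points). The widest gap was at 11:123.6, with 58.1% in the cluster and 5.36% in its flanks, a difference of 52.7 ± 34.3 points (SD over cells), and the cluster was higher in 75 cells, equal in 5 and lower in 4. At 14:20.2 the cluster had 52.9% and its flanks 9.08%, and the cluster was higher in 69 cells. At 1:247.6 the values were 48.4% in the cluster and 7.14% in the flanks, higher in 76 cells. At 11:4.3 they were 57.3% in the cluster and 13.9% in the flanks, higher in 78 cells. This gap was on the left only, where the flank of 11:4.3 had 5.03% (9 bins). Its right flank, the 2 bins of the gap to 11:5.4, had 53.6%.

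Some often contacted clusters had a neighbourhood that was often in contact as well. At 9:22:107.2 the cluster had 71.4% and its flanks 39.9%, but the flanks differed, with 67.0% on the left and 12.7% on the right. Frequent contact thus continued to the left of this array. At 11:5.4 the cluster had 52.6% and the flanks 38.4%, a difference of 14.3 ± 20.9 points, and the cluster was higher in 58 cells and lower in 15. This value depended on the width of the flanks, with 30.4 points over flanks of 0.5 Mb (22.3%) and 25.1 points over flanks of 2 Mb (27.6%). In the right flank of 11:5.4, bins starting 1.4 to 1.8 Mb from the cluster start were at 53.6 to 66.7%, and no gene was placed there. At 11:55.0 the cluster had 60.3% and its flanks 24.3%, with 45.2% on the left (2 covered bins only) and 20.1% on the right (10 bins). The difference of 36.0 points became 20.6 over flanks of 0.5 Mb (39.6%) and 37.3 over flanks of 2 Mb (23.0%). At 1:158.3 the cluster had 42.7%, against 21.4% in the flanks, higher in 51 cells and lower in 14. Right flank bins starting 0.9 to 1.3 Mb from the start of 1:158.3 were at 38.1 to 45.2%. In the 3 rarely contacted arrays the mean differences were 8.19 ± 25.4 points at 11:59.0, 5.77 ± 19.3 at 12:55.5 and 1.43 ± 10.3 at 17:2.9. In each of them the cluster was lower than its flanks in more cells than it was higher. It was higher in 22 cells and lower in 23 at 11:59.0, higher in 16 and lower in 19 at 12:55.5, and higher in 9 and lower in 16 at 17:2.9. Their flanks were at 8.47, 3.75 and 1.90%. The arrays have 3, 5 and 5 covered bins and their flanks 17, 20 and 20. Where contact is rare, a set of more bins more easily holds a contacted bin in a cell. These counts of cells therefore do not show that contact is lower in the arrays. Over the 13 clusters, mean frequency and flank frequency had a Pearson r of 0.60, a description over clusters that share chromosomes and cells.

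Set against the rest of its chromosome without receptor bins, each of the 10 often contacted clusters was higher and each of the 3 others was lower. At 9:22:107.2 the difference was 46.1 ± 30.1 points, since the rest of 9:22 averaged 25.3%. The clusters 11:59.0 and 12:55.5 were below the rest of their chromosomes, with differences of -12.4 ± 29.8 and -16.0 ± 20.0 points (SD over cells). Chromosome 17 averaged 8.48% outside the array, and 17:2.9 was below it, with a difference of -5.14 ± 9.57 points.

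**Figure D2:**
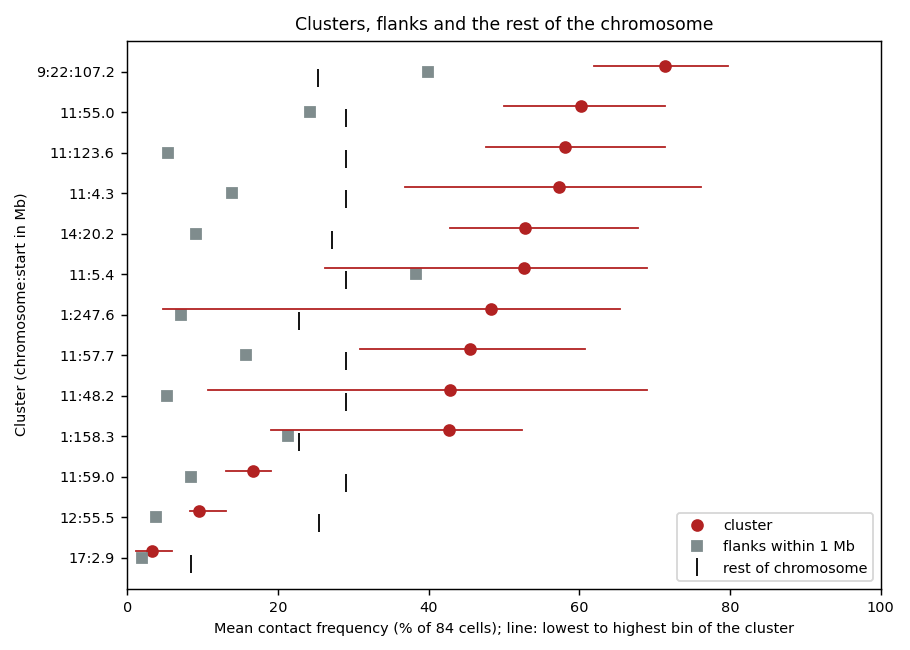
Mean contact frequency (percent of 84 cells, horizontal axis) of each cluster (circle, with a line from its lowest to its highest bin), of its flanks within 1 Mb (square) and of the rest of its chromosome (tick). All 13 circles lie right of their squares (at 17:2.9 the sign turned at cutoffs of 1.5 and 2 and in cells 1 to 29), and the circles of 11:59.0, 12:55.5 and 17:2.9 lie left of their ticks.

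Several arrays had sharp borders. At 11:48.2 frequency was 67.9% in the first bin of the array and 7.14% in the bin before it. At 11:123.6 it was 47.6% in the first bin and 7.14% before it, and 53.6% in the last bin and 2.38% after it. At 9:22:107.2 it was 61.9% in the last bin and 1.19% in the next, whereas the left side had no border, with 79.8% in the first bin and 73.8% before it. The right side of 11:57.7 had 38.1% in the last bin and 2.38% after it. The right edge of 11:55.0 had no border at the stated position, with 53.6% inside and 54.8% outside. Over all edges, the outermost bins inside averaged 38.6% ± 22.8 (SD, 26 bins) and the first bins outside 21.3% ± 20.7 (26 bins). From the second to the tenth bin, means inside lay between 42.7 and 54.6% and means outside between 9.58 and 18.0%. The number of bins inside fell from 26 at the second to 15 at the sixth and 6 at the tenth. Shorter arrays drop out, so these means inside are of different sets of clusters. In short arrays the same bin was counted from both edges. The edges are those of the rule, rounded to 100 kb, and were not set against an hg19 annotation.

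The next question was how single cells differ. A cell had between 12.5 and 80.0% of cluster bins in contact, with a median of 46.2%, against 14.5 to 42.3% and a median of 27.6% of all other covered bins. The cluster share was above the rest of the genome in 76 of 84 cells, and the mean difference over all 84 was 18.6 ± 13.4 points. The highest shares were in cell 52, with 80.0% of cluster bins and 38.8% of other bins, cell 60, with 77.5% and 30.5%, and cell 51, with 74.2% and 38.9%. The lowest share, 12.5%, was shared by cells 19, 53 and 80, in which 14.5, 15.7 and 24.7% of other bins were in contact. Cells 19 and 53 had few reads, 7134 and 11390, with only 19 and 24 of them in the clusters. Cell 80 had 112491 reads, with 307 in the clusters, and reads in 43.0% of covered bins. Its receptor contact was also below the rest of its genome. Cell 60 stood at the other end with 176643 reads.

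Cluster share went with the contact share of the genome (Pearson r = 0.72 over 84 cells, 0.71 without the 2 cells farthest from the median). It also went with read depth (r = 0.67 with log10 reads, 0.65 without 2 cells), and so did the difference between clusters and the rest (r = 0.50, 0.47 without 2 cells). These points share library and depth, and the correlations are descriptions. The part of depth in the spread between cells was not tested. In the 42 cells with the largest share of bins above 0, the clusters averaged 56.4% and the cluster minus flank difference 34.2 points.

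**Figure D3:**
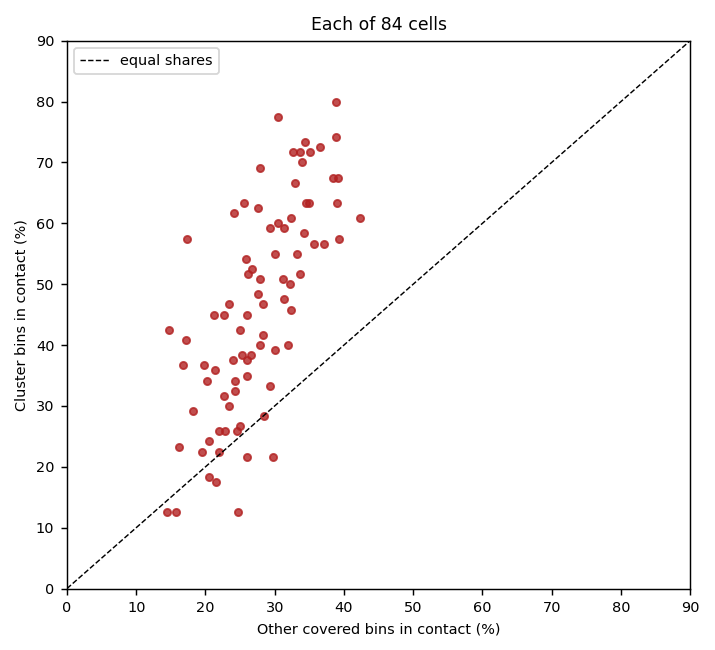
Percent of cluster bins in contact (vertical axis) against percent of all other covered bins in contact (horizontal axis) in each of 84 cells, with a dashed line of equal shares. In 76 cells the point lies above the line, and cluster shares run from 12.5 to 80.0%.

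No cell had all clusters at the lamina. Counting a cluster as mostly in contact where at least 50% of its covered bins were, a cell had a median of 6 of 13 such clusters, from 0 in 2 cells to 11 in 2 cells. Clusters were seldom wholly in contact, with 1.65 ± 1.39 per cell (SD, n = 84), while 3.63 ± 1.51 per cell had no bin in contact. The number wholly in contact was 2.74 at a contact cutoff of 0.5, 0.869 at 1.5 and 0.548 at 2. The OR13 array of 3 bins was wholly in contact in 41 cells (48.8%, exact 95% interval 37.7 to 60.0%) and free in 7 (8.33%, 3.42 to 16.4%). The array 14:20.2 was whole in 19 cells and free in 15, and 11:123.6 whole in 18 and free in 8. The array 11:55.0 was whole over its 16 bins in 10 cells and free in 5, and had some but not all bins in contact in 69. The arrays 11:48.2 and 17:2.9 were whole in 0 of 84 cells, which allows a share of up to 3.57% by 3 counts and 4.3% by the exact 95% interval. The array 17:2.9 was free in 74 cells (88.1%), 12:55.5 in 66 (78.6%) and 11:59.0 in 60 (71.4%). Longer arrays have more bins that must all pass, so whole and free counts are not comparable between arrays of different length.

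Bins of an array tended to be called in the same cells, also where contact was rare. The array 11:59.0 was whole in 6 cells and free in 60, with 18 in between. Within a cluster, contact calls of its bins correlated over cells by a mean of 0.354 ± 0.110 (SD over 13 clusters), after correction for each cell's contact share. The range was from 0.118 in 17:2.9 to 0.501 in 1:158.3. The array 11:48.2, which is the longest and has a low expectation, was second lowest at 0.180. Each value is a mean over all pairs of bins, which lie farther apart in longer arrays. These correlations are thus not comparable between arrays of different length.

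**Figure D4:**
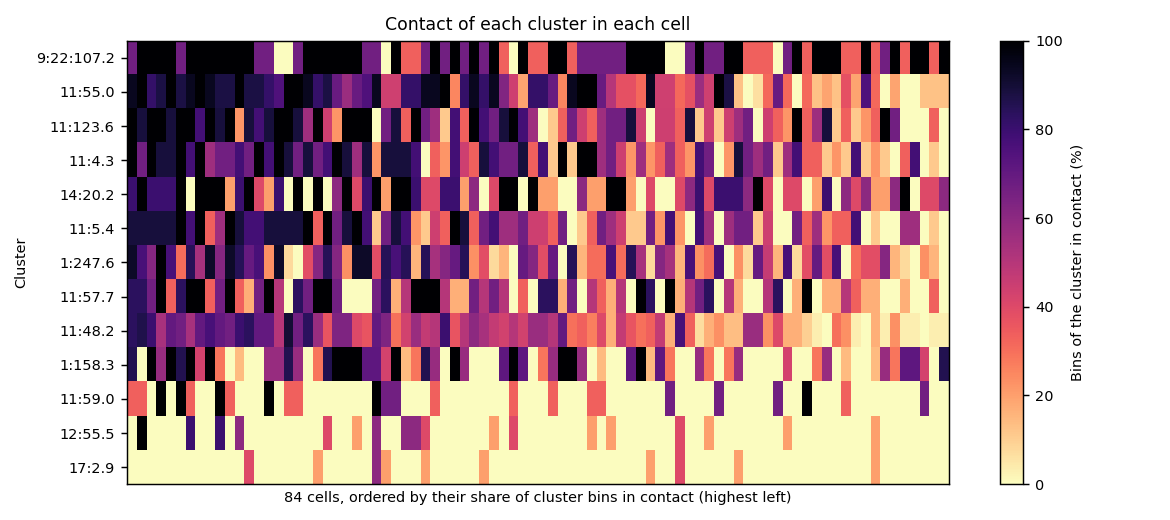
Percent of the bins of a cluster in contact (colour, 0 to 100) for 13 clusters, from the highest mean at the top to the lowest at the bottom, in 84 cells ordered by their share of cluster bins in contact. The bottom rows 11:59.0, 12:55.5 and 17:2.9 are free in 60, 66 and 74 cells.

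The last question was whether clusters meet the lamina in the same cells. Among the 78 pairs of clusters, the corrected correlation over 84 cells averaged 0.407 ± 0.192 (SD) in the 5 pairs on the same chromosome with a gap under 5 Mb. It was 0.0922 ± 0.0958 in the 17 more distant pairs on the same chromosome, and 0.00182 ± 0.108 in the 56 pairs on different chromosomes. Without correction for contact share these means were 0.479, 0.242 and 0.0897. A correction of this kind lowers such means by construction. The pair 11:4.3 and 11:5.4, 0.2 Mb apart on either side of the globin genes, had the highest value, 0.67. At least 50% of bins were in contact in both arrays in 43 cells, in neither in 26, and in only 1 of them in 10 and 5. The next were 11:48.2 and 11:55.0, on either side of the centromere with 3.5 Mb between them, at 0.48, and 11:55.0 and 11:57.7, 1.1 Mb apart, at 0.40. In the first of these pairs both arrays were mostly in contact in 32 cells and neither in 28.

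The 3 lowest values were -0.20 for 11:5.4 and 17:2.9, -0.19 for 11:57.7 and 14:20.2, and -0.18 for 11:123.6 and 17:2.9. The array 17:2.9 was mostly in contact in 1 cell only, so its values rest on few contacts. For 11:57.7 and 14:20.2, both were mostly in contact in 22 cells and neither in 19. Within chromosome 11 the array 11:123.6, near the end of the long arm, had 0.23 and 0.20 with 11:4.3 and 11:5.4 on the short arm. It had 0.156 and 0.0345 with 11:48.2 and 11:55.0, which lie closer to it. Without correction these 4 values were 0.376, 0.385, 0.389 and 0.253, so the order against 11:48.2 depended on the correction. Corrected values of pairs on different chromosomes reached 0.188, and 11:48.2 has few expected reads. No order by distance is thus shown.

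**Figure D5:**
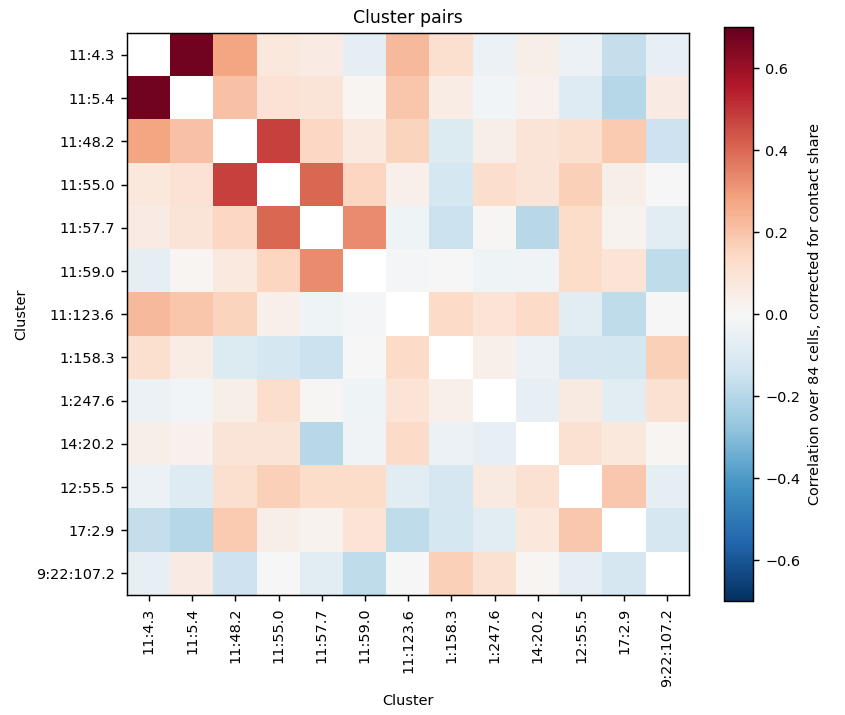
Correlation over 84 cells of the percent of bins in contact, corrected for each cell's contact share, for all pairs of 13 clusters (colour from -0.7 to 0.7, diagonal left blank). The red cells near the diagonal are neighbours on chromosome 11, with 0.67 for 11:4.3 and 11:5.4 as the highest.

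The size of the signal in contacted bins was compared as well. The median ratio of contacted bins was 2.87 ± 1.26 in clusters and 2.48 ± 0.445 in other bins (SD over 84 cells). It was higher in the clusters in 56 of 84 cells, with a mean difference of 0.386 ± 1.05. In bins of low expectation a single read stands for a larger ratio. Under 50% of the median expectation lay 31 of the 120 cluster bins, against 983 of all 26414 covered bins. The comparison was not repeated without them, so a stronger signal in the clusters is not shown. Among clusters, the median ratio of contacted bins was lowest in the rarely contacted arrays, at 1.68 in 11:59.0, 1.58 in 12:55.5 and 1.20 in 17:2.9, against 2.14 to 2.76 in the other 10. Contact frequency and this ratio come from the same values with the same cutoff of 1, so they are not independent results.

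Composition of the start windows was then set beside contact. Mean GC was 46.7% ± 11.5 (SD, 9 windows) in 17:2.9, the highest of the clusters. Windows there had a median of 3 CG dinucleotides and a mean of 8.00, of which OR3A2 alone held 39, and without it the mean was 4.12 and mean GC 43.7%. In 12:55.5, which was also rarely contacted, it was 33.8% ± 5.28 (14 windows), close to the 33.8% ± 4.20 (43 windows) of 11:55.0, which was contacted in 60.3% of cells. Over the 13 clusters window GC and contact frequency had a Pearson r of -0.32, and the number of coding receptor genes and contact frequency an r of 0.39. Both are descriptions over 13 clusters on 6 chromosomes of the table.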

How the data were processed

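The submitters' processing notes name cutadapt, Bowtie2 2.1.0 and the build hg19. The deposited table holds, for 168 of the 172 labelled samples, the authors' ratio of observed over expected reads per 100 kb bin, and the other 4 samples are not analysed here. The making of the expectation and the treatment of duplicates are not stated in the labels. Columns n and n + 86 were averaged, since each was the other's best match and their reads differed by less than sampling noise (chi-square per bin under 1 in all 84 cells, bins with at least 10 reads). Whole reads were recovered from the ratios for depth only (100% of values above 0 whole within 0.02). PCR reads are not independent molecules, so intervals cover counting error only.

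Flanks were covered bins within 1 Mb of a cluster edge and in none of the 13 clusters. They were not searched for receptor genes outside these clusters. Correlations over cells were taken after a linear fit on contact share. All 13 clusters were named, with the 5 highest and 5 lowest bins, and the 3 highest and 3 lowest cells and cluster pairs. The printed windows are the first and last receptor gene of the extreme clusters. Clusters, neighbour genes and lists were chosen with earlier results of these data known. The motifs, and bins, cells and pairs named beyond this rule, were chosen after values were seen. Python 3.11.15, numpy 2.4.6 and scipy 1.17.1 were used, and the scripts were tested on simulated data.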

Additional observations from a re-analysis of the deposited data

How the results depend on the processing

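Of 301 values recomputed under the alternatives, 299 moved by less than 1 SD over cells, clusters or pairs. That SD is a spread between single cells, clusters or pairs and no error of a mean. The count therefore does not measure how stable the results are. Among the values within it, clusters wholly in contact per cell fell from 1.65 to 0.548 at a cutoff of 2. The mean correlation between clusters ran from 0.00507 to 0.170. The number of clusters free per cell, 3.63, moved to 5.39 at a cutoff of 2 and to 1.31 with only the clusters of chromosome 11, which leaves fewer clusters to count. The mean contact frequency of the clusters ran from 29.0% at a cutoff of 2 to 56.4% in the 42 cells with most bins above 0, and the mean cluster minus flank difference from 18.5 to 35.1 points, the highest without the 3 clusters under 40%. That alternative and the one without bins of low expectation were added after seeing the data. In all 17 settings that kept the 13 clusters, the main one included, 11:59.0, 12:55.5 and 17:2.9 had the lowest frequencies and 9:22:107.2 the highest. The difference at 17:2.9 changed sign in 3 of 16 alternatives, to -0.119 and -0.238 points at cutoffs of 1.5 and 2 and -1.38 in cells 1 to 29, and the other 12 clusters stayed above their flanks in all 16. With flanks of 2 Mb the difference at 9:22:107.2 was 19.8 points. No paired analysis was possible because all cells belong to 1 group. Depth limits the calls. In the deeper column, a ratio of 1 stood for under 1 read in a cluster's median bin in 12 to 17 of 84 cells. For 11:48.2 this held in 54 cells.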
